A study of Homo sapiens with 10 samples.

Results

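The solute carriers are a superfamily of membrane transporters whose genes carry the symbol SLC, a family number, a letter and a member number. All genes of the deposited table whose symbol has this form were taken, 208 of 12125 genes, by the symbol alone and by no threshold on a value. Grouped by family number into 8 transport classes, they held 35 amino acid and peptide carriers, 33 mitochondrial carriers of the SLC25 family, 31 carriers of nucleosides, nucleotide sugars and vitamins, 25 of inorganic ions, 25 of metals and heme, 21 of glucose and other sugars, 20 of bile acids and organic ions, and 17 of monocarboxylates, fatty acids and choline. The remaining member, SLC33A1, carries acetyl-CoA and was counted in no class.

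H1, an established human embryonic stem cell (hESC) line, was sequenced as bulk RNA during differentiation to hepatocyte-like cells, on each of days 0 to 3, on every other day from day 5 to day 13, and on day 21, with 1 library per day and no replicate. Day 0 was undifferentiated cells, which the paper kept on Matrigel in mTeSR1 medium. Comparisons with day 0 therefore also span a change of base medium. The cells received Activin A at 100 ng/ml for 3 days in RPMI/B27 without insulin, BMP2 at 20 ng/ml with FGF4 at 30 ng/ml for 4 days in RPMI/B27 with insulin, HGF and KGF at 20 ng/ml each for 6 days in the same medium, and Oncostatin M (OSM) at 20 ng/ml for 8 days in hepatocyte culture medium. The day 13 library is labelled OSM, whereas the stated lengths of the steps put it at the end of HGF and KGF, so that the medium before that library is uncertain. H1 is 1 line, and every library holds all cells of a dish, so fewer cells of a type and less RNA per cell cannot be told apart.

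A plasma membrane carrier lets a cell take up or release a solute that the lipid bilayer holds back, and the SLC25 carriers do the same across the inner mitochondrial membrane. Hepatocytes are known for carriers of bile acids, citrate, glucose and metals on the membrane that faces the blood, and proliferating cells for amino acid and glucose uptake. Several amino acid carriers work only as a pair of a light chain and the heavy chain SLC3A2 or SLC3A1.

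The values are whole-number scores normalized for GC content, not read counts, and they were forced to nearly 1 distribution. The library medians were 81 or 82 and the totals ran from 2330948 to 2362740, so the depth is unknown, and a value is read against the other libraries for the same gene and not against other genes. Values of 2164 or more fall into 10 narrow levels that all libraries share, up to a maximum of 18734. Of the members, 7 reached these levels and 1, SLC2A3, reached the maximum. The labels fitted their markers: all 8 pluripotency genes were at least 4-fold lower at day 21 than at day 0, all 7 definitive endoderm genes were at least 4-fold higher at day 3, and 9 of 11 hepatic genes were in the table and were at least 4-fold higher at day 21. Stromal markers also rose, 10 of 12 from day 0 to day 21, and 1 fell. The 12 stromal markers summed to 4340 at day 3 and 44768 at day 21, and the hepatic markers to 195 and 74433. At day 21 COL1A2 of the first list, and TTR, AFP and SERPINA1 of the second, stood at the maximum of 18734. The sums rest largely on such top values and give no ratio of stromal to hepatic cells. The part of stromal cells in the results below was not tested.

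A change is called here when log2(value + 1) differs by at least 2, which is 4-fold, and the larger value is at least 50. This scale understates the change of low genes, and with 1 library per day no p-value can be given. The libraries of days 9 and 11, which share a medium, serve as a measure of spread, with any change between those 2 days included. They are not replicates, and they do not give the spread between libraries that lie further apart. Between them 0 members passed the fold in either direction (0.107% of all genes tested passed it upwards and 0.107% downwards), and at 2-fold 3 members were higher (1.04% of all genes) and 0 were lower (0.568%). The standard deviation of the members' log2 differences was 0.44. Low values were the least steady, with a standard deviation of 0.65 among members with a mean value of 5 to 20 and of 0.29 among those of 100 to 200.

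The promoters of the members that were at 0 or low in the stem cells differed in base sequence from those of the members already in use. On day 0, 12 members (5.77%, against 2.24% of all genes) were listed at 0. They were SLC10A1, SLC13A2, SLC17A1, SLC22A6, SLC22A7, SLC2A2, SLC2A5, SLC39A2, SLC39A5, SLC6A4, SLC23A1 and SLC23A3, named together here after their values were seen. In the 250 bases before the RefSeq transcript start (build GRCh38.p14), 11 of these 12 genes held 0 to 5 CpG dinucleotides, where cytosine can be methylated, and SLC6A4 held 29. The sequences of 3 of the 11, and of 2 CpG-rich members for contrast, are printed 5′ to 3′ on the strand of the gene with each CG in capitals. SLC10A1 (chr14:69797242-69797491, minus strand) held 1 CpG, the first of the 2 windows of SLC39A5 (chr12:56229801-56230050, plus strand) held 1, and SLC13A2 (chr17:28473394-28473643, plus strand) held 2. SLC2A1 (chr1:42958869-42959118, minus strand), in use in the stem cells, held 24. SLC40A1 (chr2:189580787-189581036, minus strand) is shown because it goes against the pattern, with a value of 1 on day 0 and 38 CpG.

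SLC10A1: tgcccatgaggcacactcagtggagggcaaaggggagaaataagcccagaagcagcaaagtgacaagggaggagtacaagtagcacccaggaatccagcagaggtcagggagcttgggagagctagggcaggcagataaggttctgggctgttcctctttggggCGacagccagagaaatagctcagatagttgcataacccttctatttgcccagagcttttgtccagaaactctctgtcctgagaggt
SLC39A5: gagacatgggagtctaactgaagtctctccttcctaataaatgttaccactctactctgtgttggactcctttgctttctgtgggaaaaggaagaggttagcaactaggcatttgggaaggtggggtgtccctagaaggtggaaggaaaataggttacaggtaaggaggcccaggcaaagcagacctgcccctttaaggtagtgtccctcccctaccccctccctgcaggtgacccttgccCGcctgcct
SLC13A2: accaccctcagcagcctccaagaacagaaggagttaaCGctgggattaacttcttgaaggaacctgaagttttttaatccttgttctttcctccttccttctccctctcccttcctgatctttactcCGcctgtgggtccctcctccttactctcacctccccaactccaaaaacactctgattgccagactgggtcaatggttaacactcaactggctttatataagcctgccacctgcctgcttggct
SLC2A1: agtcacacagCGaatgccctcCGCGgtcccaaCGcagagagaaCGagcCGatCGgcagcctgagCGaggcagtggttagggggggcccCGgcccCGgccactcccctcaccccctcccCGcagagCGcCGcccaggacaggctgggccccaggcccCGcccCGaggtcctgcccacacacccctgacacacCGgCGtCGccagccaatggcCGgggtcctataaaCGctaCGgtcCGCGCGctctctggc
SLC40A1: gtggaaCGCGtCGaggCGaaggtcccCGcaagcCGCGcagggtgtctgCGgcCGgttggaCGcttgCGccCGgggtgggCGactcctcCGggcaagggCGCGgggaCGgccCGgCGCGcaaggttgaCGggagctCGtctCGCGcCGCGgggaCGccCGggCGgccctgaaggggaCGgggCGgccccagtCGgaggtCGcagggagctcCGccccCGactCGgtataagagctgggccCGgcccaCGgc

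The same difference was seen over the members with a promoter window, 170 of 208. Among members with a day 0 value under 50, 73 of 88 had a window and 30 of these (41.1%) held fewer than 10 CpG, with a median of 16. Among members at 50 or more, 97 of 120 had a window and 3 (3.09%) held fewer than 10, with a median of 21.5. Of all 35116 RefSeq windows, each counted singly, 47.8% held fewer than 10 and the median was 11. A gene with several windows was given the mean of its windows, so the shares of genes and of windows are unlike measures. The count of CpG is a description of the windows. The direction was the same for protein-coding genes outside the superfamily, of which 19.6% held fewer than 10 CpG among those under 50 on day 0 and 7.36% among those at 50 or more. Windows were found for 78.5% and 83.0% of these genes, and DNA methylation was not measured here.

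Over the whole course more members rose than fell. Between day 0 and day 21, 165 of 208 members reached a value of 50 on either day. Of these, 30 (18.2%, against 11.9% of all genes tested) rose and 11 (6.67%, against 11.5%) fell. Except for SLC7A2, SLC16A3 and SLC39A6, the 30 were below 50 on day 0, so they were tested only through their day 21 value. A gene below 50 on day 0 cannot be called as a fall. On day 0, 88 of the 208 members were below 50, against 4103 of all 12125 genes. Both shares of members therefore follow in part from low day 0 values. The median log2 difference of the 208 members was 0.36 and that of all genes was −0.12. At a lower fold of 2, 56 members (33.9%, against 23.9%) were higher and 25 (15.2%, against 26.4%) were lower. Scaling the libraries by the median of ratios moved the all-gene median by 0.18, to 0.06, and kept both counts of members within 1.5 times.

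More members rose in the step under FGF4 and BMP2 than in any other step. From day 3 to day 7, 19 of 156 members (12.2%, against 5.63% of all genes) rose and 7 (4.49%, against 4.41%) fell, and the median difference was 0.43 for members and −0.03 for all genes. Except for SLC7A8, at 154 on day 3, the 19 were below 50 on day 3, so they were tested only through their day 7 value. The share of rises therefore follows in part from low day 3 values. With a larger value of at least 200, 5 members rose in this step. In the other steps 3 to 6 members moved in each direction. From day 0 to day 3, 5 of 135 members rose (3.7%, against 3.94%) and 5 fell (3.7%, against 2.16%). From day 7 to day 13, 5 of 160 rose (3.12%, against 3.08%) and 4 fell (2.5%, against 2.46%), and from day 13 to day 21, 6 of 164 rose (3.66%, against 2.28%) and 3 fell (1.83%, against 1.62%). With the day 5 library in place of day 7, the count of rises from day 3 was 9, of which 8 were among the 19, so 11 of the 19 did not pass the fold by day 5. Of the 7 falls, 2 passed it by day 5. The share of all genes from day 3 to day 5 was not computed. At 2-fold, 36 members were higher (23.1%, against 13.2%) and 13 lower (8.33%, against 12.8%) from day 3 to day 7. The corresponding counts were 18 (13.3%, against 11.1%) and 22 (16.3%, against 9.07%) from day 0 to day 3, 20 (12.5%, against 9.65%) and 17 (10.6%, against 8.21%) from day 7 to day 13, and 24 (14.6%, against 8.57%) and 14 (8.54%, against 9.08%) from day 13 to day 21.

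**Figure D1:**
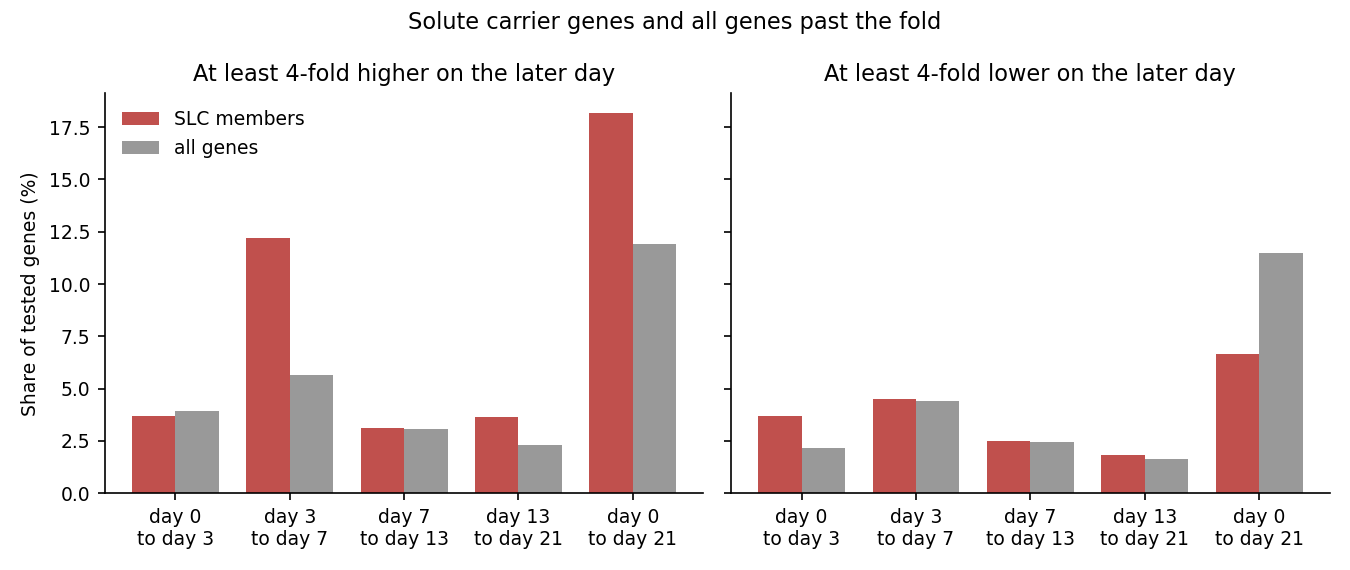
Bars give the percentage of tested genes that were at least 4-fold higher (left) or lower (right) on the later day, for solute carrier members (red) and all genes of the table (grey), in 5 comparisons of 1 library each. The red bar stands above the grey one for rises from day 3 to day 7 (12.2% and 5.63%) and over the whole course (18.2% and 11.9%), and below it for falls over the whole course (6.67% and 11.5%).

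The day of the highest value was late more often among members than among all genes. Of the 208 members, 55 (26.4%, against 18.6% of all genes) were highest at day 21 and 42 (20.2%, against 16.2%) at days 5 and 7. Only 40 (19.2%, against 30.4%) were highest on days 1 to 3 and 23 (11.1%, against 15.6%) on day 0. For 6 members (2.88%, against 2.76%) the highest value was tied between stages. The number listed at 0 was 12 on day 0 (5.77%, against 2.24% of all genes) and 5 on day 5 (2.4%, against 1.42%). It was 2 on day 7 (0.962%, against 1.14%), 0 on day 9 (against 0.899%) and 2 on day 21 (0.962%, against 1.78%). Every member reached at least 28 in some library, so a member at 0 on day 0 had to be higher later.

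The classes differed in how much they moved. A range of at least 4-fold over the 10 libraries was found for 87 of 185 members that reached 50 (47%, against 40.2% of all genes). The share was 78.6% for bile acid and organic ion carriers, 70.6% for amino acid carriers and 65.0% for sugar carriers, and 16.1% for mitochondrial carriers. From day 0 to day 21 the class median of log2 differences was 2.08 for bile acid and organic ion carriers, 0.88 for inorganic ion carriers, 0.73 for nucleoside, nucleotide sugar and vitamin carriers, 0.67 for monocarboxylate, fatty acid and choline carriers, 0.62 for metal carriers, 0.11 for sugar carriers, 0.0 for amino acid carriers and −0.19 for mitochondrial carriers. The bile acid and organic ion class held many low genes, with a median value of 18.5 on day 0 and 55 on day 21, and its median difference was 1.42 when 5 and not 1 was added to each value.

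**Figure D2:**
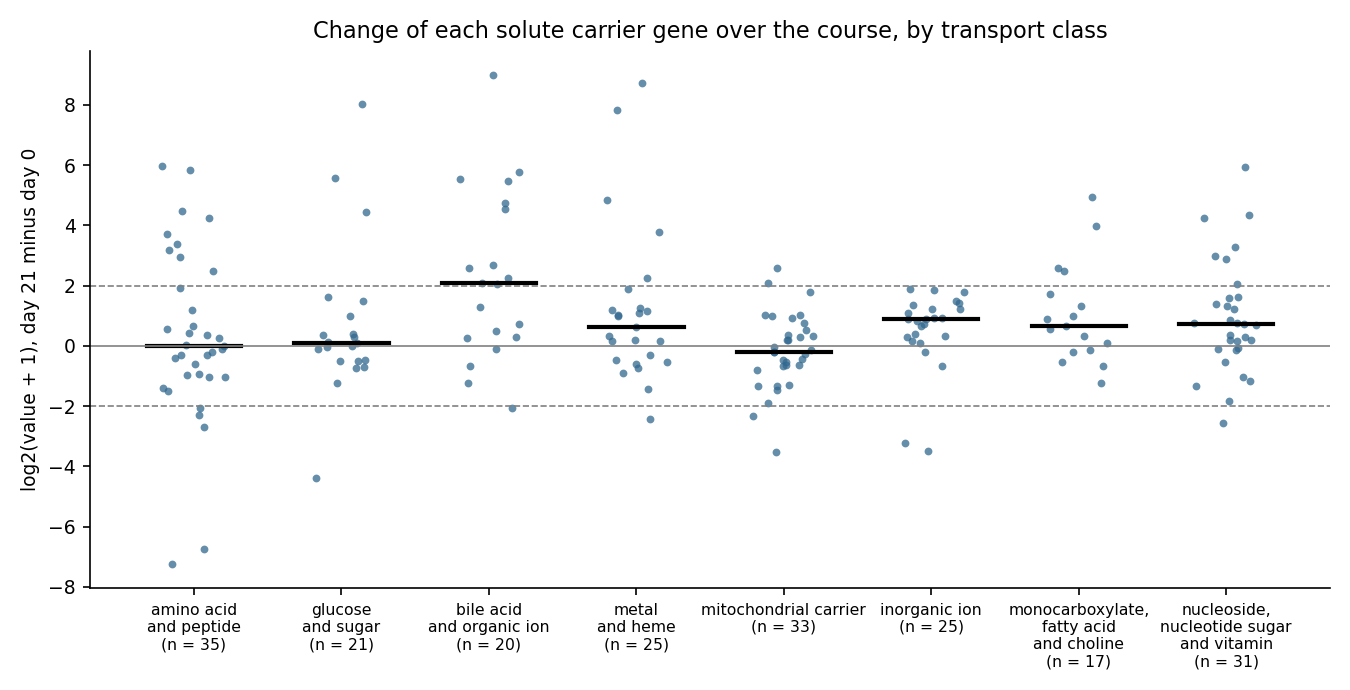
Each dot is 1 solute carrier gene and gives log2(value + 1) at day 21 minus day 0, by transport class, with the class median as a black bar and the 4-fold limits as dashed lines. The bile acid and organic ion class has its median at 2.08, above the upper limit, and the mitochondrial carriers have theirs at −0.19 and lie within 4-fold for most genes.

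Amino acid carriers moved in both directions, and different carriers of the same solutes rose and fell. Of 29 members tested between day 0 and day 21, 7 rose (24.1%, against 11.9% of all genes) and 5 fell (17.2%, against 11.5%). The cationic amino acids arginine and lysine have 3 listed uptake carriers. SLC7A3, a high-affinity carrier, was at 434, 676, 386 and 421 on days 0 to 3, at 194 and 76 on days 5 and 7, at 49, 30 and 21 on days 9, 11 and 13, and at 3 on day 21, a log2 difference of −6.76 over the course. SLC7A2, whose liver isoform is a low-affinity carrier, had 74, 24, 16 and 10 on days 0 to 3, then 67 and 176, then 383, 612 and 768, and 576 on day 21. Thus SLC7A2 fell during Activin A (log2 difference −2.77) and rose in both of the following steps (4.01 and 2.12). The value of SLC7A3 lay below its own day 3 value in each later library. SLC7A1, the widely used carrier of this group, went from 415 on day 0 to 98 on day 21 (log2 difference −2.07). The further rise of SLC7A2 from day 7 to day 13 did not pass the fold with day 11 in place of day 13.

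SLC7A7 exports cationic amino acids in exchange for neutral ones, paired with the heavy chain SLC3A2. It stood at 24, 37, 47 and 34 on days 0 to 3, reached 488 on day 5 and 1386 on day 7, and stayed at 1158 to 1555 from day 9 to day 21. This was among the largest rises of the FGF4 and BMP2 step, with a log2 difference of 5.31. SLC3A2 itself was at 714 on day 0, 1385 on day 3, 2638 on day 5, 2970 on day 11 and 1130 on day 21. SLC3A1, the other heavy chain, which serves cystine uptake, was at 0 to 2 up to day 5, at 38 on day 7, 100 on day 9, and 160 to 188 on days 11 to 21. Its rise from day 7 to day 13 passed the fold (log2 difference 2.05). Its usual light chain SLC7A9 was not analysed here.

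Large neutral amino acids such as leucine enter through SLC7A5 and SLC7A8, both of them light chains of SLC3A2. SLC7A5 had values of 1185, 2164, 2798 and 3428 on days 0 to 3, 2968 and 2429 on days 5 and 7, 1733, 1638 and 1434 on days 9 to 13, and 956 on day 21. Its highest value was on day 3, and no comparison passed the fold. SLC7A8 had 432, 282, 162 and 154 on days 0 to 3, 1328 and 1892 on days 5 and 7, 2026, 2024 and 1280 on days 9 to 13, and 209 on day 21. It was one of the carriers that rose with FGF4 and BMP2 (log2 difference 3.61) and fell from day 13 to day 21 (−2.61), and the fall also passed the fold from day 11. SLC43A1, another leucine carrier, went from 58 to 8 over the course (−2.71).

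**Figure D3:**
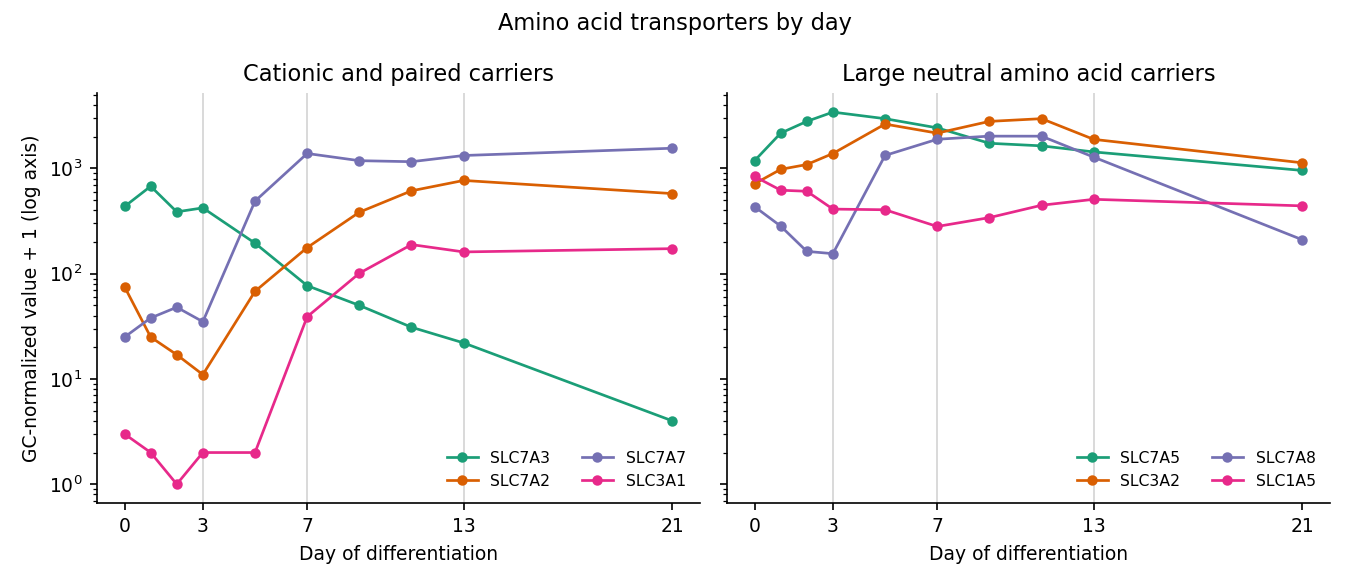
Lines give the GC-normalized value plus 1 (log axis) of 8 amino acid carriers in the 10 libraries, with grey lines at days 3, 7 and 13. SLC7A3 goes from 434 to 3 while SLC7A2 and SLC7A7 reach 576 and 1555 at day 21, and SLC7A8 goes from 154 on day 3 to 1892 on day 7 and 209 on day 21.

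Among carriers of small neutral amino acids and glutamine, SLC38A1 fell over the course, from 956 on day 0 and 1044 on days 1 and 2 to 456 on day 7 and 196 on day 21 (log2 difference −2.28). SLC38A2, a related carrier known to be induced by amino acid shortage, had 1735 on day 0, 2431 on day 2, 902 on day 13 and 1490 on day 21, and SLC1A5, the glutamine exchanger, had 838 on day 0, 280 on day 7 and 440 on day 21. Neither passed the fold. SLC38A4, a carrier found in liver, fell from 118 on day 0 to 12 on day 3 (−3.19) and had 2 on day 5 and 28 to 52 afterwards. SLC6A15, a carrier of branched-chain amino acids and proline, had 149 on day 0, 60 on day 3, 7 on day 7 and 0 on day 21.

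From day 0 to day 21 SLC1A1, SLC1A3 and SLC1A4 rose. SLC1A3 (glutamate and aspartate) had 38 on day 0, 22 on day 3, 142 on day 7 and 402 on day 21, and SLC1A4, an exchanger of small neutral amino acids in the same family, had 12 and 72 on days 0 and 21. SLC1A1, a glutamate carrier named after its values were seen, had 32 on day 0, 101 on day 13 and 428 on day 21, but its day 11 value of 224 was within 4-fold of the last. SLC7A11, which imports cystine in exchange for glutamate, did not pass the fold in any of the 5 comparisons, at 218 on day 0, 382 on day 2 and 106 on day 21. In the amino acid shortage response, a list of 12 genes outside the superfamily that includes ASNS, PSAT1 and PHGDH, 11 genes were in the table and 10 were tested from day 0 to day 21, of which 4 fell (against 11.5% of all genes) and 1 rose (against 11.9%).

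In the SLC6 family, which carries amino acids and amines, SLC6A4 was highest on day 7 and SLC6A8 on day 5. SLC6A4, the serotonin carrier, was at 0 on days 0, 1 and 2, at 5 on day 3, 50 on day 5 and 91 on day 7, then at 38, 18, 6 and 8. SLC6A8, the creatine carrier, had 305 on day 0, 130 on day 3, 386 on day 5, 296 on day 7, 63 on day 13 and 200 on day 21. Both fell from day 7 to day 13 (log2 differences −3.72 and −2.21), SLC6A4 also with day 11 in place of day 13 and SLC6A8 not. SLC6A9, a glycine carrier, had 51 on day 3, 7 on day 7 and 34 on day 13. SLC7A14, a lysosomal relative of the cationic carriers, was highest at the end of the Activin A step, at 5, 12, 58 and 109 on days 0 to 3, 56 on day 5 and 2 to 5 from day 7.

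The facilitative glucose carriers SLC2A1 and SLC2A3 moved apart under Activin A. SLC2A1 (GLUT1), the carrier of most proliferating cells, had 1492, 726, 332 and 228 on days 0 to 3, 629 and 902 on days 5 and 7, 1737, 2434 and 1736 on days 9 to 13, and 2970 on day 21. SLC2A3 (GLUT3), a high-affinity carrier known from neurons and early embryos, had 2969, 2430, 6495 and 18734 on days 0 to 3, 18734 on days 5 and 7, then 6495, 4856, 3862 and 3862. SLC2A1 thus fell (log2 difference −2.70) while SLC2A3 rose (2.66) from day 0 to day 3. From day 7 to day 13 SLC2A3 fell again (−2.28), and SLC2A1 stood at its highest value on day 21.

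SLC2A3 lay in the shared top levels in every library, and at the maximum from day 3 to day 7, so its steps there are jumps between levels. With day 2 in place of day 3 its rise did not pass the fold, nor did its later fall with day 11 in place of day 13, whereas the fall of SLC2A1 passed on day 2 as well. The near-identical paralog SLC2A14 can share reads with SLC2A3. It had 64 on day 0, 126 on day 3, 150 on day 7 and 182 on day 21, so both values are uncertain to that extent. Of the hexokinases that trap glucose in the cell, HK1 had 1185 on day 0 and 402 on day 3 and HK2 had 440 and 109.

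Liver-type sugar carriers appeared late or briefly. SLC2A2 (GLUT2), the low-affinity glucose carrier of hepatocytes, was listed at 0 in the 6 libraries from day 0 to day 7, at 54, 37 and 43 on days 9, 11 and 13, and at 0 again on day 21. It therefore had a value above 0 only in these 3 libraries, of which that of day 13 has the uncertain medium. SLC2A5 (GLUT5), a fructose carrier, was at 0, 1, 6 and 3 on days 0 to 3, 7 and 18 on days 5 and 7, 80, 110 and 106 on days 9 to 13, and 262 on day 21. SLC37A4, which carries glucose-6-phosphate into the endoplasmic reticulum for glucose release, had 157 on day 0, 364 on day 7 and 191 on day 21 and did not pass the fold.

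Of 17 members of the sugar class tested from day 0 to day 21, 3 rose (17.6%, against 11.9% of all genes) and 1 fell (5.88%, against 11.5%). SLC2A5, SLC5A9 and SLC5A12 rose and SLC5A3 fell. SLC5A9, a sodium-coupled carrier of mannose and glucose, was at 3, 0, 43 and 112 on days 0 to 3 and 88 to 189 afterwards, and its rise passed the fold on day 3 but not on day 2. SLC5A3, which takes up myo-inositol with sodium, had 186 on day 0, 280 on day 11, 194 on day 13 and 8 on day 21, a fall with a log2 difference of −4.44 from day 13. SLC2A12, a further glucose carrier, had 72 on day 13 and 5 on day 21. For SLC5A3 and SLC2A12 the fall to day 21 also passed the fold from day 11.

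Lactate and other monocarboxylates leave or enter through SLC16A1, SLC16A3 and SLC5A12. The last belongs to the sodium-coupled SLC5 family, was counted with the sugar carriers by its family number, and is a low-affinity lactate carrier. SLC5A12 had 49, 36, 5 and 18 on days 0 to 3, 20 and 13 on days 5 and 7, 30 and 118 on days 9 and 11, 630 on day 13 and 1090 on day 21. It had the largest rise of any member from day 7 to day 13 (log2 difference 5.49), and the rise passed the fold on day 11 as well. SLC16A3 (MCT4), the lactate exporter of glycolytic cells, had 144 on day 0, 16 on day 1, 72 on day 3, 96 on day 7, 293 on day 13 and 873 on day 21 (2.59 from day 0). SLC16A1 (MCT1) had 982 on day 3, 2638 on days 7 and 9, 956 on day 13 and 790 on day 21, and its shared partner BSG had 2021 on day 0 and 934 on day 21. Neither passed the fold.

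**Figure D4:**
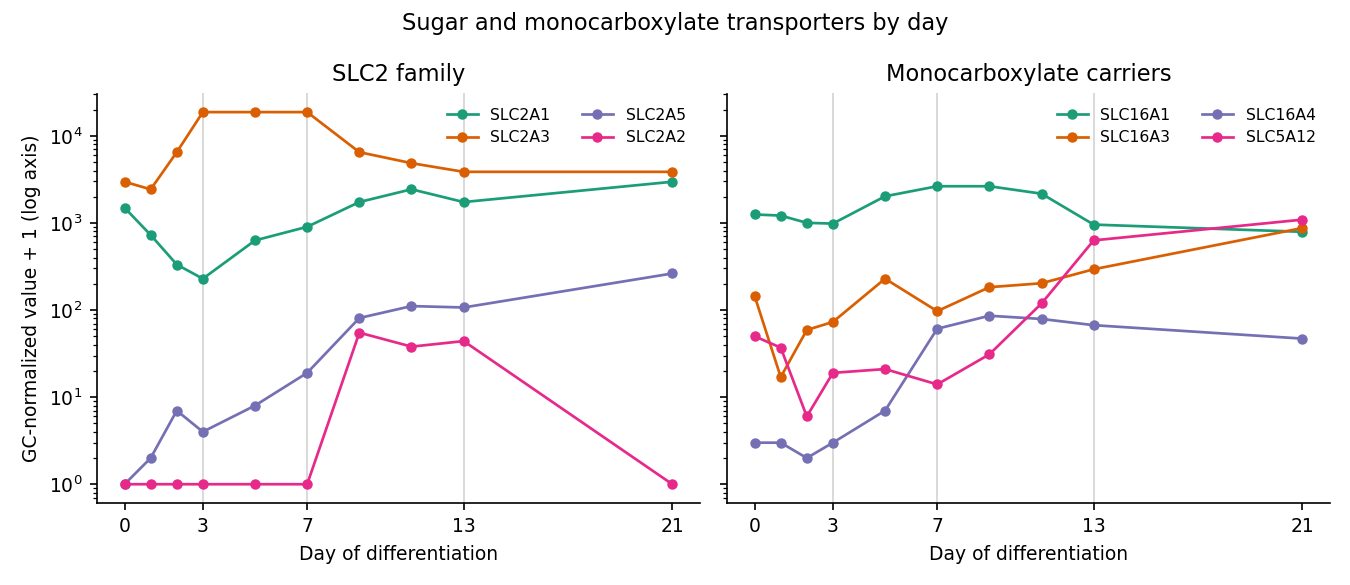
Lines give the GC-normalized value plus 1 (log axis) of 4 SLC2 carriers and 4 monocarboxylate carriers in the 10 libraries, with grey lines at days 3, 7 and 13. SLC2A1 is lowest on day 3 (228) when SLC2A3 reaches the maximum of the table (18734), SLC2A2 has values above 0 on days 9, 11 and 13 only, and SLC5A12 goes from 13 on day 7 to 1090 on day 21.

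Of the same class, SLC16A4, an orphan relative of the monocarboxylate carriers, rose from 2 on day 3 to 60 on day 7 and had 46 to 85 afterwards. SLC27A2, a fatty acid carrier and acyl-CoA synthetase of liver, had 0 to 14 up to day 5 and 30, 74, 72, 85 and 48 from day 7, and SLC27A5, a bile acid and fatty acid CoA ligase of hepatocytes, stayed at 14 to 34. The choline carrier SLC44A1 stayed at 254 to 440. Of 11 members of this class tested from day 0 to day 21, 3 rose (27.3%, against 11.9% of all genes) and 0 fell (against 11.5%).

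The bile acid and organic ion carriers had the highest share of rises, 7 of 11 tested from day 0 to day 21 (63.6%, against 11.9% of all genes), and 0 fell (against 11.5%). The 7 were SLC10A1, SLC13A5, SLC17A5, SLC22A3 and SLC22A5, and SLC10A3 and SLC22A18, the last 2 named after their values were seen. The class was set by family number and is not limited to bile acid carriers, and SLC17A5 in it is a lysosomal exporter of sialic acid. The class holds 20 members, and each of the 7 was below 50 on day 0, so it was tested only through its higher day 21 value. A member below 50 on day 0 cannot be called as a fall, and the class median on day 0 was 18.5. Both shares therefore follow in part from the low day 0 values of the class. SLC10A1 (NTCP), which takes up bile salts from blood together with sodium, was listed at 0 in the 5 libraries up to day 5, at 1, 6, 16 and 36 on days 7, 9, 11 and 13, and at 508 on day 21. Its rise from day 13 to day 21 (log2 difference 3.78) also passed the fold from day 11. ALB, the main plasma protein made by hepatocytes, went from 168 to 4866 between the same libraries. SLC10A7, a relative without bile acid transport, stayed at 23 to 60.

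SLC13A5 and SLC13A2 of the SLC13 family rose earlier than SLC10A1. SLC13A5, the citrate carrier of liver, had 3 to 14 up to day 5, 206 on day 7, 333, 388 and 528 on days 9, 11 and 13, and 164 on day 21. SLC13A2, a dicarboxylate carrier, was listed at 0 on days 0 to 3 and at 4, 50, 74, 42 and 44 from day 5 to day 13, and had 5 on day 21. Both values were low on day 5, and neither rise passed the fold with that library in place of day 7. SLC13A5 was also higher at day 21 than at day 0 (log2 difference 4.56), although the day 21 value lay below that of day 13. SLC13A3, of the same family and named after its values were seen, did not rise. It had 49 on day 0, 18 on day 3, 20 on day 7 and 20 on day 21, below the value that a call needs.

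Organic cation and anion carriers of the SLC22 family differed in timing, and not all of them were low on day 0. SLC22A3 (OCT3) had 1, 39, 72 and 70 on days 0 to 3, 96 and 233 on days 5 and 7, 264, 333 and 360 on days 9 to 13, and 108 on day 21, and its rise in the Activin A step passed the fold on day 2 as well. SLC22A5 (OCTN2), the carnitine carrier, had 23 on day 0, 52 on day 7 and 112 on day 21 (log2 difference 2.24). SLC22A7 (OAT2), an organic anion carrier of liver, was at 0 to 5 up to day 11, then at 34 and 46, below the value that a call needs. SLC22A23, an orphan of the family, had 226, 100, 60 and 48 on days 0 to 3 and 212 on day 21, and its early fall did not pass the fold with day 2 in place of day 3. SLC47A1, an exporter of organic cations, stayed at 6 to 28. The liver carriers SLC22A9, SLC51A and SLC51B were not analysed here.

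Organic anion and bile acid transporters outside the SLC number scheme were read from lists chosen for their roles. Of 11 SLCO transporters, 5 were in the table, 4 were tested from day 3 to day 7 and 2 of these rose (against 5.63% of all genes). SLCO2B1, an uptake carrier of liver and gut, had 1 on day 3, 386 on day 7 and 1278 on day 21. Of 14 ABC exporters, 6 were in the table and tested, and 3 rose in the same step. ABCC2, which exports conjugates into bile, had 5 on day 3, 178 on day 7 and 96 on day 21, and ABCA1, the cholesterol exporter, had 54, 1088 and 1000. SLCO2B1, ABCC2 and ABCA1 rose from day 3 to day 7, before the bile salt carrier SLC10A1 did. KLB, a receptor subunit through which bile acid synthesis is restrained, had 3, 127 and 459 on the same days. It belongs to a list of 10 genes of bile acid synthesis and sensing, of which 4 were in the table. From day 0 to day 21, KLB and CYP27A1 rose, and FGF19 fell from 74 to 0. FGFR4 was highest on day 7, at 838, and did not pass the fold from day 0 to day 21 (log2 difference −0.51).

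Of 22 metal carriers tested from day 0 to day 21, 3 rose (13.6%, against 11.9% of all genes) and 1 fell (4.55%, against 11.5%), a share of rises near the background. SLC39A5 (ZIP5), a zinc importer, was listed at 0 on days 0 to 3, at 4 on day 5, 290 on day 7, 478, 512 and 641 on days 9, 11 and 13, and 420 on day 21. It had the largest log2 difference of any member from day 3 to day 7, 8.18, of which 5.86 lay between day 5 and day 7. SLC40A1 (ferroportin), the only known cellular iron exporter, had 1, 0, 22 and 146 on days 0 to 3, 126 and 134 on days 5 and 7, 234, 294 and 444 on days 9 to 13, and 453 on day 21. Its rise in the Activin A step (log2 difference 6.20) was the largest of any member in that step, and it did not reach the value needed for a call on day 2.

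Other zinc carriers moved at different times. SLC30A1 (ZnT1), which exports zinc from the cell, had 131, 48, 12 and 16 on days 0 to 3, 88 and 162 on days 5 and 7, 49, 64 and 35 on days 9 to 13, and 94 on day 21. It fell in the Activin A step (−2.96), rose in the next (3.26) and fell again by day 13 (−2.18), the last not when day 11 or day 5 replaced a library. SLC39A14 (ZIP14), an importer of zinc and non-transferrin-bound iron in liver, had 936 on day 0, 446 to 512 from day 1 to day 5, 981 to 1185 on days 7 to 11, and 756 on days 13 and 21. SLC39A6 (ZIP6) had 38 on day 5, 72 on day 7, 320 on day 13 and 634 on day 21, although its rise from day 7 did not pass by day 11. SLC39A10 (ZIP10), its close relative, fell from 567 on day 0 to 104 on day 21 (−2.44).

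**Figure D5:**
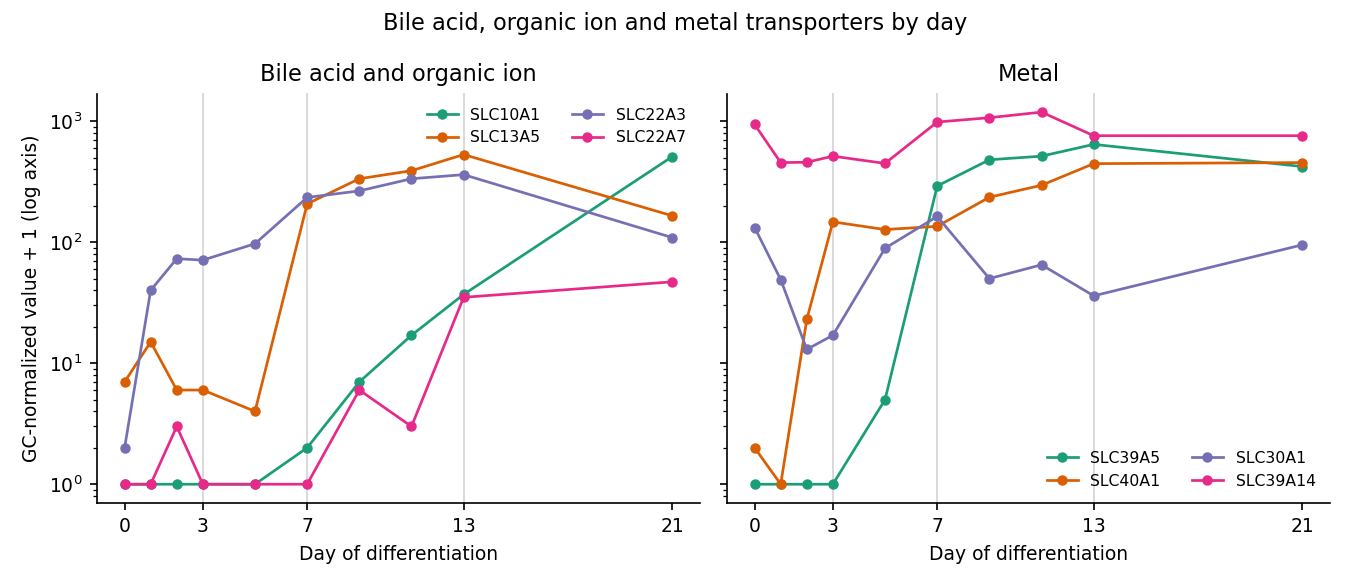
Lines give the GC-normalized value plus 1 (log axis) of 4 bile acid and organic ion carriers (left) and 4 metal carriers (right) in the 10 libraries, with grey lines at days 3, 7 and 13. SLC39A5 and SLC13A5 step up at day 7 (290 and 206), SLC10A1 reaches 508 at day 21, and SLC30A1 is low on days 2 and 3 (12 and 16).

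SLC39A8 (ZIP8), which carries zinc and manganese, had 126 on day 0, 431 on day 1, 196 on day 3, 652 on day 5 and 76 to 142 from day 7, so it was highest in a library between the compared days. SLC39A4 (ZIP4), the importer of dietary zinc, rose from 18 on day 3 to 122 on day 7, a rise that did not pass the fold from day 2. The remaining listed metal carriers did not pass the fold in any comparison. SLC11A2 (DMT1), an iron importer, stayed at 144 to 262, SLC31A1 (CTR1), the copper importer, went from 118 on day 3 to 404 on day 9, and SLC48A1, a heme carrier, stayed at 30 to 96.

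Mitochondrial carriers varied least. From day 0 to day 21, 1 of 28 tested rose (3.57%, against 11.9% of all genes) and 1 fell (3.57%, against 11.5%). From day 0 to day 3, 0 of 25 tested passed the fold, and 0 of 29 did from day 7 to day 13 and from day 13 to day 21. Of all genes 1.62% to 3.94% passed it in each direction, and with so few carriers tested a count of 0 lies near these shares. Their median range over the 10 libraries was 1.4 on the log2 scale, against 2.14 for the other members and 1.7 for all genes. The phosphate carrier SLC25A3 stayed at 902 to 2430. The ADP/ATP exchangers SLC25A5 and SLC25A6 had 1108 and 1886 on day 0 and 450 and 744 on day 21, and SLC25A4, the form of muscle and heart, stayed at 54 to 125. The citrate carrier SLC25A1 stayed at 320 to 536 and the ornithine carrier SLC25A15, part of the urea cycle, at 32 to 54.

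The member that fell was SLC25A13 (citrin), the aspartate and glutamate exchanger that supplies aspartate to the urea cycle. It had 227, 231, 470 and 450 on days 0 to 3, 209 and 214 on days 5 and 7, 170, 142 and 136 on days 9 to 13, and 44 on day 21 (log2 difference −2.34). The member that rose, SLC25A42, a coenzyme A carrier named after its values were seen, had 14 on day 0 and 63 on day 21. SLC25A18, a glutamate carrier, rose from 8 on day 3 to 63 on day 7 and had 11 on day 21. SLC25A20, which brings acylcarnitines in for fatty acid oxidation, had 26 on day 0, 156 on day 13 and 92 on day 21 and did not pass the fold in any of the 5 comparisons.

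SLC25A37 (mitoferrin-1) supplies iron for heme in red cell precursors. It had 174 on day 0, 80 to 124 from day 1 to day 11, 303 on day 13 and 296 on day 21, which did not pass the fold. Red blood cell markers moved in the same libraries. Of 13 listed, 9 were in the table, all 9 were at least 4-fold higher at day 13 than at day 7, and their sum was 73 on day 7, 1149 on day 11, 5910 on day 13 and 2947 on day 21. SLC25A28 (mitoferrin-2), the form of other tissues, stayed at 24 to 50, and SLC25A38, which carries glycine for heme, at 86 to 146. The part of red cells in the values of SLC25A37 was not tested.

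Of 19 inorganic ion carriers tested from day 0 to day 21, 0 rose (against 11.9% of all genes) and 2 fell (10.5%, against 11.5%). SLC4A7, a sodium and bicarbonate cotransporter, had 782, 842, 412 and 309 on days 0 to 3, 276 and 142 on days 5 and 7, 88, 96 and 63 on days 9 to 13, and 82 on day 21. SLC4A11, of the same family, had 78 on day 0 and 6 on day 21. SLC9A5, a sodium and proton exchanger, had 68 on day 3 and 2 on day 7, but 41 on day 2, too low for a call. SLC34A2, a phosphate carrier, was at 0 on days 11 and 13 and at 54 on day 21. The anion exchanger SLC4A2, the sodium, potassium and chloride cotransporter SLC12A2 and the phosphate carrier SLC20A1 did not pass the fold, with ranges of 180 to 574, 70 to 182 and 162 to 414.

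Of 27 nucleoside, nucleotide sugar and vitamin carriers tested from day 0 to day 21, 6 rose (22.2%, against 11.9% of all genes) and 1 fell (3.7%, against 11.5%). The member that fell was SLC29A1 (ENT1), the equilibrative nucleoside carrier, with 604 on day 0, 134 on day 2, 293 on day 5 and 102 on day 21 (log2 difference −2.55). Carriers of folate and thiamine, SLC46A1 and SLC19A3, were among the 6. SLC46A1, the proton-coupled folate carrier, had 26 on day 0, 49 on day 3, 235 on day 7 and 260 on day 21 (3.27), while the reduced folate carrier SLC19A1 had 183 and 170 on days 0 and 21. SLC19A3, a thiamine carrier, was at 0 on day 3, 46 on day 7, 12 on day 13 and 125 on day 21, and its rise from day 13 did not pass from day 11. SLC23A2, a vitamin C carrier, had 80 on day 3, 328 on day 11 and 151 on day 21. The Golgi carrier of CMP-sialic acid, SLC35A1, stayed at 6 to 32.

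SLC36A1 and SLC17A5, both lysosomal carriers, passed the fold only in comparisons with the day 21 library. SLC36A1, a proton-coupled amino acid exporter of lysosomes, had 28 to 80 in the 9 libraries up to day 13, with 44 on day 13, and 642 on day 21. SLC17A5 (sialin), the lysosomal exporter of sialic acid, had 21 to 56 up to day 13 and 222 on day 21. The rise of SLC36A1 from day 13 (log2 difference 3.84) also passed from day 11, and that of SLC17A5 (2.19) did not. Other lysosomal carriers did not pass the fold from day 13 to day 21. SLC15A4 had 74 and 72, SLC38A7 80 and 84, and SLC38A9 54 and 72, all named after their values were seen. SLC7A14 had 2 and 5. Macrophage markers moved in the same library: of 12 listed, 4 were in the table, 3 rose from day 13 to day 21, and their sum was 159 on day 0, 35 on day 3, 92 on day 13 and 573 on day 21. PTPRC (CD45), a surface protein of all white blood cells, had 39, 12 and 18 on days 0 to 2, was at 0 from day 3 to day 13 and at 65 on day 21, and CD68, a lysosomal protein of macrophages, went from 50 to 259. The part of these cells in the values of SLC36A1 and SLC17A5 was not tested.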

How the data were processed

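Bulk RNA of H1 cells was sequenced by the authors, with 1 library for each of 10 days. The authors aligned the reads with Bowtie2 2.2.0 and RSEM 1.2.17 and normalized for GC content with EDASeq, and they deposited 1 table of whole-number scores. The submitters' processing notes name the builds mm10 and hg19, and the build of the table is not given in the sources used here, so no interval was taken from it. The depth of each library is unknown. Groups are the days in the labels.

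Differences of log2(value + 1) were computed for 5 comparisons, with Python 3.11.15, numpy 2.4.6 and pandas 2.3.3, and plotted with matplotlib 3.10.9. The code was tested on simulated data. The members, classes and gene lists were chosen with earlier results of these data known. Named are the 5 largest rises and falls of each comparison past the fold, the 5 members with the highest value on day 0 and on day 21, 96 members chosen for known roles (73 in the table, 23 not analysed here), and other genes where a result turns on them. Members named otherwise are said to be chosen after their values were seen. Promoter windows are from RefSeq. The CpG comparison was chosen after seeing the data, in place of a finer split by value with too few windows, and a motif search was tried and dropped. Alternatives were other pseudocounts, filters, folds, scaling and neighbouring libraries. A few genes are not reported here.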

Additional observations from a re-analysis of the deposited data

How the results depend on the processing

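No replicate exists, so no library could be left out within a day, and no p-value was computed. No paired analysis was possible because each day has 1 library. Of 134 values recomputed under alternatives, 101 stayed within 1.5 times the main count or within the spread, and 33 moved. Rises and falls were counted apart, so a turn in direction could not be recorded for a count. Every change of pseudocount, scaling or gene set left the counts of members within 1.5 times. The 1 median that moved was that of bile acid and organic ion carriers from day 0 to day 21, from 2.08 to 1.42 with a pseudocount of 5.

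The counts depended on the filter and the fold. For the other filters no share over all genes was computed, so these counts do not tell a change of the members from a change of all genes. Without a filter on low values, members that passed were 12 higher from day 0 to day 3, 31 higher from day 3 to day 7, 9 higher and 7 lower from day 7 to day 13, and 9 lower from day 13 to day 21. With a larger value of at least 200, they were 1 higher and 2 lower from day 0 to day 3, 5 and 2 from day 3 to day 7, 3 and 2 from day 7 to day 13, 1 lower from day 13 to day 21, and 14 higher and 7 lower from day 0 to day 21. At a log2 difference of at least 1, they were 18 higher and 22 lower, 36 and 13, 20 and 17, 24 and 14, and 56 and 25, in the same order of comparisons.

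Replacing a library by its neighbour moved the counts too, and no share over all genes was computed for these pairs of days. With day 2 for day 3, 2 were higher from day 0 and 4 were lower by day 7. With day 5 for day 7, 9 were higher and 3 lower from day 3, and 16 were higher and 9 lower by day 13. With day 11 for day 13, 3 were higher and 1 lower from day 7. The cause was not tested.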
